A study of Hydra vulgaris with 12 samples.

Results

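Transcripts with a short-lived excursion 2 h after bisection were examined in regenerating Hydra. Of 16988 predicted mRNAs in the table, 210 stood higher at 2 h than at any other sampled time (pulse transcripts) and 71 stood lower (dip transcripts), which gives 281 members. A pulse transcript had both 2 h libraries above all 10 others, and its 2 h mean exceeded the highest other time mean by at least 0.5 on a log2 scale. A dip transcript met the mirror image of these conditions. The members were therefore chosen by their 2 h values, and every value that sets 2 h against another time is given as a description, without a test.

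Hydra is a freshwater cnidarian polyp that regrows a head when the upper body is cut off. The animals were Hydra magnipapillata of strain 105 (entered as Hydra vulgaris), starved for 1 day and carrying a young bud. They were cut between the uppermost trunk region, R1, and the next one, R2, and RNA was taken from R2 and R3 at 0, 2, 4, 6, 12 or 48 h after the cut. Each time has 2 samples, each a pool of 50 to 100 animals, so the 12 libraries differ, by their labels, only in time and pool. Even the 0 h animals were cut, and uncut polyps held for 2 to 48 h were not part of the design given here. Effects of the cut and of the hours kept therefore cannot be told apart.

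As background, the first hours after a cut in Hydra include closure of the wound and injury signalling, and they precede the patterning of the new head by the Wnt-producing organizer at the tip. In animals generally, some genes respond to a stimulus within minutes to hours and return soon after; immediate early genes, many of which encode transcription factors, are the textbook case. A lowered transcript level in such a window can come from less synthesis or from faster decay, and RNA abundance does not separate these. In tissue pools, fewer cells of a type and less RNA per cell cannot be told apart either.

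The table gives RefSeq accession numbers, and none of the 281 members is paired with a gene name in the table or in the RefSeq gene list used for names, in which 1 of 17353 rows was found. Gene lists for injury response, Wnt signalling, stress and cell types could for that reason not be applied, labelled tissue could not be checked against markers, and no role is given to any member. Levels are given as scaled RPKM: the authors' RPKM multiplied by 1 factor per library, from 0.69 to 0.92, so that the median of the 11325 transcripts with at least 1 RPKM in every library is 20. Differences are on the log2(scaled RPKM + 1) scale, which understates changes of weakly expressed transcripts. Sequencing depth is unknown, because the values show no steps of whole reads. In every library at least 1489 transcripts lie above 0 but below 0.001 RPKM, and how reads that fit several transcripts were divided is not given, so the values of close relatives are uncertain.

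The margin, meaning the distance of the 2 h mean from the nearest other time mean, was small for most members. Its median was 0.64 in pulse transcripts, with a range of 0.50 to 2.56, and 0.74 in dip transcripts, with a range of 0.50 to 3.69. A margin of at least 1 was reached by 42 of 210 pulse and 20 of 71 dip transcripts. In linear terms the mean of the 2 h libraries was, at the median, 1.71 times the nearest other time mean over the 201 pulse transcripts whose nearest mean was above 0.001, and 0.560 times that mean in dip transcripts. The margin was larger than the difference between replicates, both at 2 h and at the nearest other time, in 164 pulse and 55 dip transcripts.

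The set has a soft edge. The pulse transcripts nearest to the limit of 0.5 had margins of 0.5007, 0.5007 and 0.5015 inside and 0.4984, 0.4932 and 0.4923 outside. For dip transcripts these values were 0.5002, 0.5004 and 0.5048 inside and 0.4999, 0.4981 and 0.4978 outside. A further 616 transcripts had both 2 h libraries above all others with a smaller margin, and 331 had both below.

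The 2 classes differed in abundance. Pulse transcripts had a median of 5.88 scaled RPKM over all 12 libraries, dip transcripts 39.0, and all predicted mRNAs 10.0. At least 1 library below 0.001 scaled RPKM was found in 89 pulse transcripts (42.4%) and in 1 dip transcript (1.41%), against 30.2% of all predicted mRNAs. A total of 105 pulse and 63 dip transcripts had at least 1 scaled RPKM in all 12 libraries, and 4 and 15 of these had a margin of at least 1. So 4 of the 42 pulses with a margin of at least 1, but 15 of the 20 such dips, stayed at or above 1 scaled RPKM in every library. The rule itself favours this, since a low transcript has room to rise but little room to fall.

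The level right at the cut was the closest to that at 2 h in over 50% of the members. How often 0 h is the highest or lowest of the other times in all predicted mRNAs was not computed. These shares are therefore not shown to be particular to the members. The nearest other time was 0 h in 116 of 210 pulse transcripts (55.2%) and in 37 of 71 dip transcripts (52.1%). It was 4 h in 34 and 8, 6 h in 22 and 8, 12 h in 17 and 5, and 48 h in 21 and 13. The median difference of pulse transcripts was 0.76 at 2 h minus 0 h and 0.98 at 2 h minus 4 h, so the drop after 2 h was larger than the climb before it. In dip transcripts these medians were −0.91 and −1.20.

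**Figure D1:**
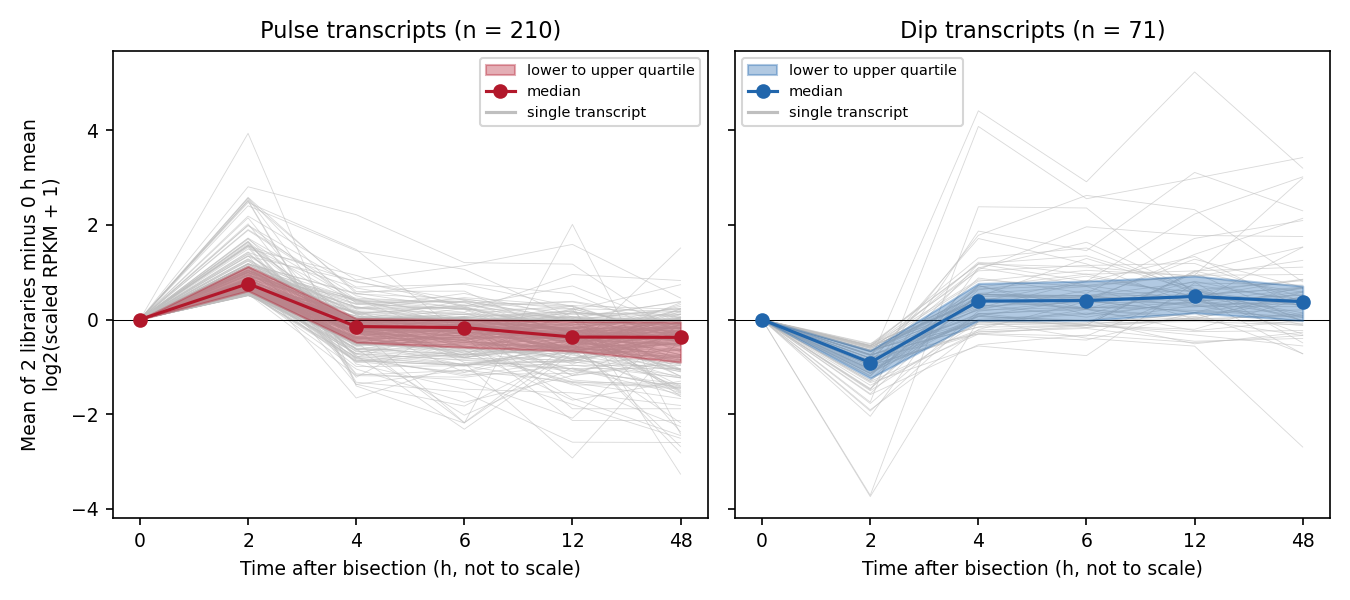
Mean of the 2 libraries of each time minus the 0 h mean, in log2(scaled RPKM + 1), against time after bisection (categories, not to scale), for 210 pulse and 71 dip transcripts. Grey lines are single transcripts, the coloured line is the median and the band runs from the lower to the upper quartile. The excursion at 2 h is set by the rule. From 4 h on the median lies below 0 in pulse and above 0 in dip transcripts, a direction on which the rule also bears.

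The pulse transcript with the largest margin (2.56) was XM_004209349.1, with 19.3 and 0.0114 scaled RPKM in the 0 h libraries, 31.3 and 21.0 at 2 h, 9.63 and below 0.001 at 4 h, below 0.001 in both at 6 h, 0.00803 and 7.38 at 12 h, and below 0.001 in both at 48 h. Its replicates disagreed at 0, 4 and 12 h, with 1 library expressed and the other near 0, and 0 h replicate 1 came close to the 2 h level. The second, XM_002164501.2 (margin 2.51), had 8.15 and 5.54 scaled RPKM at 0 h, 29.0 and 64.1 at 2 h, 6.07 and 0.352 at 4 h, 1.64 and 1.69 at 6 h, 0.653 in replicate 1 and listed at 0 in replicate 2 at 12 h, and 0.640 and again listed at 0 at 48 h. Its lower 2 h library was well above every other library, and the level then sank below that of 0 h.

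Among pulse transcripts with at least 1 scaled RPKM in all libraries, XM_002162095.2 had the largest margin (2.15). It had 153 and 277 scaled RPKM at 0 h, 428 and 1957 at 2 h, 223 and 78.6 at 4 h, 276 and 95.6 at 6 h, 14.4 and 277 at 12 h, and 31.2 and 43.6 at 48 h. Its 2 h libraries did not overlap the others but differed more from each other than 2 h replicate 1 did from the next highest library. XM_004206661.1 (margin 1.17) had tighter replicates: 26.1 and 23.9 scaled RPKM at 0 h, 50.9 and 64.9 at 2 h, 22.4 and 23.5 at 4 h, 14.3 and 8.42 at 6 h, 21.2 and 16.9 at 12 h, and 15.6 and 33.5 at 48 h. Its mean was 57.9 ± 9.88 at 2 h and 25.0 ± 1.54 at 0 h (SD, n = 2 each).

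The deepest dip was that of XM_004209514.1 (margin 3.69), with 70.1 and 10.8 scaled RPKM at 0 h, 0.646 and 1.98 at 2 h, 216 and 104 at 4 h, 208 and 104 at 6 h, 60.1 and 28.3 at 12 h, and 56.7 and 13.1 at 48 h. Replicate 1 was the higher one at every time but 2 h. XM_002156388.2 (margin 2.04) had 189 and 152 scaled RPKM at 0 h, 42.2 and 38.5 at 2 h, 327 and 401 at 4 h, 289 and 271 at 6 h, 523 and 202 at 12 h, and 1777 and 1021 at 48 h. Its 2 h replicates were close, and both 48 h libraries lay above all others. XM_004210759.1 (margin 1.74) had 205 and 225 scaled RPKM at 0 h, 78.5 and 51.4 at 2 h, 3944 and 3363 at 4 h, 1321 and 1209 at 6 h, 1926 and 1502 at 12 h, and 1161 and 4595 at 48 h. Here the dip directly preceded a much larger increase. XM_004205411.1, given after its values were seen, was the only dip transcript near 0 in both 2 h libraries, with under 0.001 scaled RPKM in each, against 1.34 and 4.99 scaled RPKM at 0 h.

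The values of 5 more members, chosen after they were seen, show how the times outside 2 h varied, from nearly level to a wider spread. The dip of XM_004212754.1 (margin 1.44) had nearly level surroundings: 267 and 337 scaled RPKM at 0 h, 91.2 and 121 at 2 h, 288 and 286 at 4 h, 323 and 273 at 6 h, 290 and 316 at 12 h, and 331 and 304 at 48 h. All 10 libraries outside 2 h lay between 267 and 337, and the mean was 106 ± 21.3 at 2 h and 302 ± 49.7 at 0 h (SD, n = 2 each). XM_002167310.2 (margin 1.13) had 36.8 and 46.4 scaled RPKM at 0 h, 12.5 and 18.4 at 2 h, 37.0 and 31.9 at 4 h, 32.1 and 41.8 at 6 h, 53.4 and 33.9 at 12 h, and 51.1 and 27.9 at 48 h. Its 2 h libraries lay below the other 10, which were more scattered than those of XM_004212754.1.

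Among pulses, XM_004206483.1 (margin 0.85) had 136 and 116 scaled RPKM at 0 h, 237 and 219 at 2 h, 118 and 109 at 4 h, 87.6 and 90.0 at 6 h, 137 and 106 at 12 h, and 161 and 84.7 at 48 h. XM_002159227.1 (margin 0.92) had 146 and 160 scaled RPKM at 0 h, 344 and 308 at 2 h, 105 and 135 at 4 h, 81.1 and 102 at 6 h, 241 and 121 at 12 h, and 107 and 185 at 48 h. In both the 2 h replicates lay close together and the level at 4 h was back within the range of the later libraries. XM_002165213.2 (margin 0.82) was less abundant, with 11.5 and 13.1 scaled RPKM at 0 h, 24.5 and 26.5 at 2 h, 9.02 and 9.31 at 4 h, 9.79 and 16.4 at 6 h, 19.3 and 10.1 at 12 h, and 7.62 and 6.88 at 48 h. Its libraries outside 2 h ran from 6.88 to 19.3, and those of XM_002159227.1 from 81.1 to 241, so neither was level. The means of the 5 other times stayed within 1 of each other on the log2 scale in 65.7% of pulse and 54.9% of dip transcripts, against 61.5% of all predicted mRNAs. With at least 1 scaled RPKM in all 12 libraries these shares were 75.2%, 58.7% and 60.4%.

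**Figure D2:**
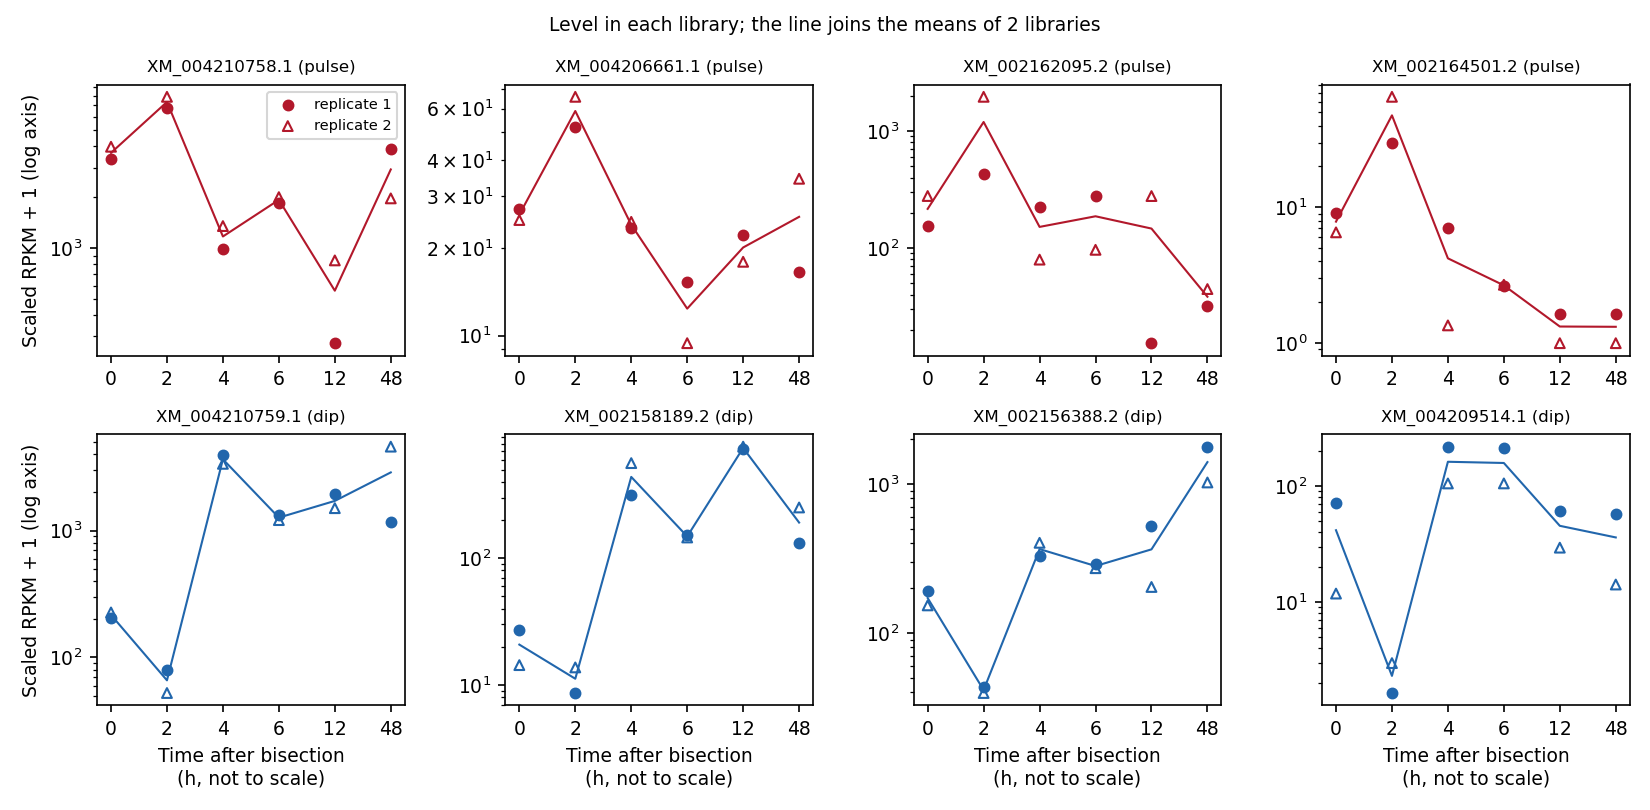
Scaled RPKM + 1 on log axes in each of the 12 libraries against time after bisection (categories, not to scale), for 4 pulse transcripts (top row) and 4 dip transcripts (bottom row). Filled circles are replicate 1, open triangles replicate 2, and lines join the means of 2 libraries; in every panel both 2 h libraries lie outside the range of the other 10.

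The 2 h libraries did not contribute alike to the pulses. Replicate 2 was above replicate 1 in 127 of 210 pulse transcripts (60.5%), against 46.6% of all predicted mRNAs, and in 36 of 71 dip transcripts (50.7%). The replicates were over 1 apart on the log2 scale in 19 pulse transcripts, and replicate 2 was the higher in all 19. Such a gap, in either direction, was found in 2.88% of all predicted mRNAs. The share of all predicted mRNAs with replicate 2 higher by this much was not computed. These 19, which include XM_002164501.2 and XM_002162095.2, were mostly weakly expressed, with a median of 4.30 scaled RPKM in 2 h replicate 1 and 13.6 in replicate 2. Their medians were 1.68 and 1.88 in the 0 h libraries and below 0.001 in both 48 h libraries. They made up 11 of the 20 largest pulse margins, and 15 of them kept a margin of at least 0.5 in replicate 1 alone. Among dip transcripts 6 had such a gap, and replicate 1 was the lower library in 5 of them. A margin of at least 0.5 in each 2 h library taken singly was held by 119 pulse and 41 dip transcripts. The part that either 2 h library plays in these pulses was not tested.

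**Figure D3:**
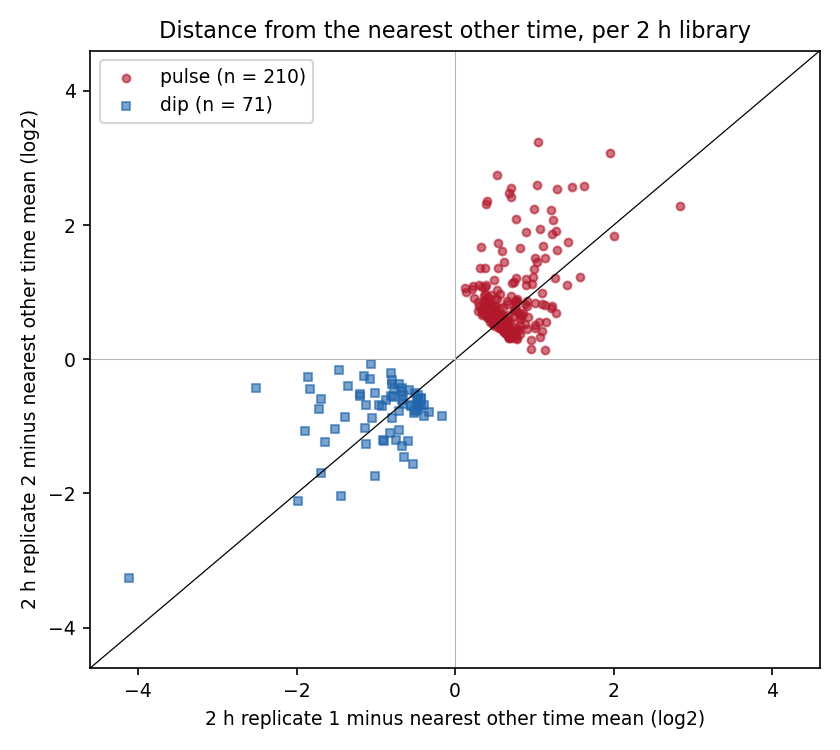
Distance of 2 h replicate 1 (x axis) and of 2 h replicate 2 (y axis) from the nearest other time mean, in log2(scaled RPKM + 1), for 210 pulse transcripts (circles, above 0 by the rule) and 71 dip transcripts (squares, below 0 by the rule). The line marks equal distance; the pulse transcripts far from it lie on the side of replicate 2.

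Some members carry consecutive accession numbers. Among the members were 8 such pairs, of which 4 joined a pulse and a dip transcript and 4 joined 2 pulse transcripts. The sources used here do not say whether such transcripts belong to 1 gene. The most abundant pulse transcript, XM_004210758.1, is numbered next to the dip transcript XM_004210759.1 described above. It had 3347 and 3979.95 scaled RPKM at 0 h, 6796 and 7861 at 2 h, 992 and 1349 at 4 h, 1857 and 2002 at 6 h, 273 and 845 at 12 h, and 3873 and 1968 at 48 h. XM_004210759.1 held 1.14% and 0.649% of the sum of the pair in the 2 h libraries, against 5.78% and 5.36% at 0 h. By 4 h its share was 79.9% and 71.4%. The sum itself was 6875 and 7913 at 2 h and between 2199 and 6563 in the other libraries, so the pair as a whole also peaked at 2 h.

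In a second pair, named like the next ones after its values were seen, the sum moved little. XM_002164851.2, a pulse transcript, had 407 and 315 scaled RPKM at 2 h and between 157 and 281 in the other libraries. XM_002164852.2, a dip transcript, had 45.7 and 121 scaled RPKM at 2 h and between 158 and 312 in the others. Their sum was 453.2 and 436 at 2 h and ran from 387 to 473 over all 12 libraries, a 1.22-fold range, so the excursion was not present in the sum. In the third pair, pulse transcript XM_002158094.2 and dip transcript XM_002158095.2, the sum was 418 and 340 scaled RPKM at 2 h. It lay between 153 and 332 in the other libraries. Both 2 h sums were thus the highest, but that of replicate 2 was only slightly above the 332 of 0 h replicate 1. In the fourth, pulse transcript XM_004209620.1 and dip transcript XM_004209619.1, the sum was 251 and 188 scaled RPKM at 2 h and between 274 and 1175 in the others. Both 2 h sums were thus the lowest, but that of replicate 1 was only slightly below the 274 of 12 h replicate 2. The pairs therefore did not share a single pattern of sums.

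Of 195 pulse transcripts with a row numbered directly before or after them, 13 (6.67%) had a neighbouring row that was lower in both 2 h libraries than in its 10 others, and 19 (9.74%) had one that was higher. Of 64 dip transcripts with a neighbouring row, 7 (10.9%) had one that was higher at 2 h in this sense and 3 (4.69%) had one that was lower. Of the 15057 predicted mRNAs with a neighbouring row, 3.68% had one that was lower and 7.89% one that was higher. Each share of the members lay above its background, by 6.67% against 3.68% for pulse transcripts with a lower neighbour. The shares rest on 3 to 19 members, and the differences were not tested. How far reads shared between similar transcripts enter these values was not tested.

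**Figure D4:**
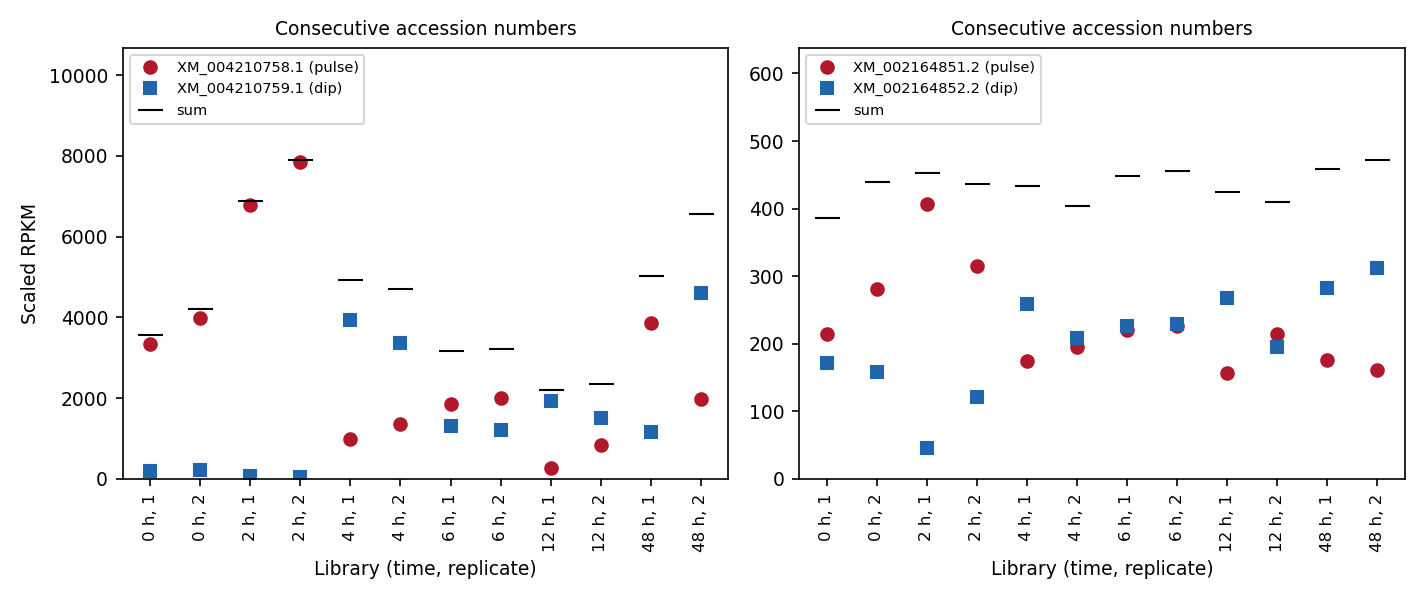
Scaled RPKM in each of the 12 libraries for 2 pairs of transcripts with consecutive accession numbers: pulse transcript (circles), dip transcript (squares) and their sum (dashes). In the left pair the sum is highest in the 2 h libraries, at 6875 and 7913; in the right pair it stays between 387 and 473.

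The times that the rule did not single out were then compared with each other, to see whether the members returned to their level at the cut. The 2 h libraries were left out, and 1 linear model was fitted in limma to the 10 libraries of 0, 4, 6, 12 and 48 h over 13960 transcripts with at least 1 scaled RPKM in at least 2 of them. All 71 dip transcripts and 163 of 210 pulse transcripts entered; 47 pulse transcripts were too low outside 2 h, and 1 entered through a single time. Rises and falls are differences of at least 1 on the log2 scale with an adjusted p (Benjamini-Hochberg) below 0.05. The rule still bears on direction. Every other time mean of a pulse transcript lies at least 0.5 below its 2 h mean, which was a median of only 0.76 above 0 h. For most of the 210 pulse transcripts the rule therefore excluded a rise of 1 over 0 h. For most dip transcripts, with a median of −0.91 at 2 h minus 0 h, it likewise excluded a fall of 1. Low counts of rising pulse and falling dip transcripts below are therefore largely set by the rule and say little about the members. By cutting off that side, the rule also moves the medians and the unadjusted counts below to the other side. It can raise the shares of falling pulse and rising dip transcripts as well. Dip transcripts were also more abundant, with a median of 39.0 scaled RPKM against 10.0 in all predicted mRNAs. How far the rule and abundance bear on the values below was not tested, and they are not read as traits of the members. The comparisons with 0 h share the 0 h libraries and are given side by side.

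A difference among the 5 times at any point, by limma's moderated F-test with adjusted p below 0.05, was found for 18 of 163 pulse transcripts and 22 of 71 dip transcripts, against 28.0% of all transcripts tested. The shares were 11.0% and 31.0%, so the dip share was near the background and the pulse share below it. The rule keeps all 5 times of a pulse transcript below its 2 h level. Pulse transcripts were also weaker, with a median of 5.88 scaled RPKM against 10.0 in all predicted mRNAs. How far these bear on the lower share was not tested, so it is not read as a trait of the members. Dropping 1 library at a time brought the pulse count to 9 or 7 for 0 h replicates 1 and 2, to 11 for replicate 1 of 4 h, to 10 or 11 for 6 h replicates 1 and 2, and to 46 for replicate 1 of 48 h. With the replicate number as a block it was 11. Without the 2 h libraries, 144 of 163 pulse and 51 of 71 dip transcripts rose or fell in none of the comparisons of 4, 12 and 48 h with 0 h, against 75.2% of all transcripts tested. A missed threshold does not show that their levels were equal.

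At 4 h against 0 h, 2 of 163 pulse transcripts fell and 0 rose, against 2.56% of all transcripts tested that fell and 6.25% that rose. In limma, 17 were lower and 0 higher at an unadjusted p below 0.05, beside 12.9% of all transcripts tested that were lower and 15.6% that were higher. The median difference was −0.24 in the tested pulse transcripts and −0.03 in all transcripts tested. XM_002155091.1 had 18.1 and 19.1 scaled RPKM at 4 h and 44.9 and 42.3 at 0 h, with 75.6 and 53.9 at 2 h between them (log2 difference −1.19, SE 0.20, limma adjusted p = 0.00839). XM_004212344.1 had 161 and 167 scaled RPKM at 4 h and 298 and 386 at 0 h, with 484 and 538 at 2 h (log2 difference −1.04, SE 0.18, adjusted p = 0.00858 in limma). In both, the 4 h libraries lay below both 0 h libraries. Both calls depended on 0 h replicate 2 and on each of the 4 h libraries: when any of these was dropped, the count was 0. The limma adjusted p over all 19 alternatives ran from 9.27e-04 to 0.0673 for XM_002155091.1 and from 0.00306 to 0.0697 for XM_004212344.1. Dropping either 48 h library instead raised the number of pulse transcripts called at 4 h against 0 h.

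Among dip transcripts, 10 of 71 rose at 4 h against 0 h and 0 fell, beside the 6.25% and 2.56% of all transcripts tested. At an unadjusted limma p below 0.05, 24 were higher and 0 lower, beside the 15.6% and 12.9% of all transcripts tested. Their median difference was 0.39. The 2 largest rises were those of XM_002158189.2 and XM_004210759.1. XM_002158189.2 had 312 and 561 scaled RPKM at 4 h and 26.3 and 13.3 at 0 h, with 7.64 and 12.8 at 2 h between them (log2 difference 4.41, SE 0.41, limma adjusted p = 6.18e-04). XM_004210759.1 rose by 4.08 (SE 0.52, limma adjusted p = 0.00251). Both kept their calls in all 19 alternatives. Only 5 rises were called when 0 h replicate 2 was dropped, and 6 when 4 h replicate 1 was.

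At 12 h against 0 h, 11 of 163 pulse transcripts fell and 0 rose, against 5.34% of all transcripts tested that fell and 8.04% that rose. At an unadjusted limma p below 0.05, 37 were lower and 1 higher, beside 17.3% of all transcripts tested that were lower and 17.9% that were higher. The median difference was −0.47 in the tested pulse transcripts and −0.04 in all transcripts tested. The largest falls were those of XM_004210758.1, by 2.92 (SE 0.50, limma adjusted p = 0.00654), and XM_002164501.2, by 2.59 (SE 0.72, limma adjusted p = 0.0380). The first kept its call in all 19 alternatives. The second kept it in 10, with an adjusted p from 0.0116 to 0.155 in limma, and lost it when any library of 0 h (0.144 for replicate 1, 0.117 for replicate 2), 6 h (0.0658 and 0.0656) or 12 h (0.0806 and 0.155) was dropped, as well as in 3 other alternatives. Dropping 0 h replicate 2 reduced the 11 falls to 3, dropping 12 h replicate 1 to 6, and dropping either 6 h library to 7.

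In the same comparison 12 of 71 dip transcripts rose and 0 fell, beside the 8.04% and 5.34% of all transcripts tested. At an unadjusted limma p below 0.05, 26 were higher and 1 lower, beside the 17.9% and 17.3% of all transcripts tested. Their median difference was 0.49. XM_002158189.2 stood at 722 and 757 scaled RPKM at 12 h (log2 difference 5.23, SE 0.41, limma adjusted p = 3.10e-04). XM_002155079.2 had 37.4 and 44.0 scaled RPKM at 12 h and 5.12 and 2.81 at 0 h, with 0.300 and 1.29 at 2 h between them (log2 difference 3.10, SE 0.25, limma adjusted p = 3.66e-04). Both kept their calls in all 19 alternatives. The 12 rises became 5 when 12 h replicate 1 was dropped and 6 when 0 h replicate 2 was.

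At 48 h against 0 h, 13 of 163 pulse transcripts fell and 0 rose, against 7.70% of all transcripts tested that fell and 8.81% that rose. At an unadjusted limma p below 0.05, 45 were lower and 0 higher, beside 19.1% of all transcripts tested that were lower and 19.6% that were higher. The median difference was −0.44 in the tested pulse transcripts and −0.04 in all transcripts tested. The largest fall was that of XM_004212705.1, with 0.0172 scaled RPKM in 48 h replicate 1 and a value listed at 0 in replicate 2, against 8.88 and 4.11 at 0 h (log2 difference −2.82, SE 0.60, limma adjusted p = 0.0136). Its 2 h libraries held 12.1 and 11.6. That call was lost when 0 h replicate 1 was dropped (0.0744), when libraries were weighted (0.109) and when the model held just the libraries of 0 and 48 h (0.0518), within a limma adjusted p range of 0.00653 to 0.109 over 19 fits. The second largest was that of XM_002155992.2, by 2.68 (SE 0.55, limma adjusted p = 0.0116), whose call was not followed through the alternatives. XM_002164501.2 came next, with a fall of 2.60 (SE 0.72, limma adjusted p = 0.0329). Its call was kept in 10 of 19 fits, and the limma adjusted p was 0.232 when libraries were weighted. Among the 9 fits that lost it were those that dropped either 0 h library, either 6 h library or 48 h replicate 2. With 48 h replicate 1 dropped, the 13 calls became 32. With 0 h replicate 1 dropped they became 5, of which 4 were falls and 1 a rise, and with 0 h replicate 2 or either 6 h library dropped they became 8.

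Of the 71 dip transcripts, 10 rose and 1 fell at 48 h against 0 h, beside the 8.81% and 7.70% of all transcripts tested. In limma, 21 were higher and 3 lower at an unadjusted p below 0.05, beside the 19.6% and 19.1% of all transcripts tested. Their median difference was 0.38. XM_004210759.1 rose by 3.42 (SE 0.52, limma adjusted p = 0.00373), a call lost when the model held just the libraries of 0 and 48 h (0.0517, within a range of 1.69e-04 to 0.0517). XM_002158189.2 rose by 3.20 (SE 0.41, limma adjusted p = 0.00215), and XM_002156388.2, in which the 48 h libraries were the highest of all, by 2.98 (SE 0.42, limma adjusted p = 0.00295). The fall was that of XM_002167556.2, with 14.2 and 17.2 scaled RPKM at 48 h and 117 and 96.5 at 0 h (log2 difference −2.69, SE 0.26, limma adjusted p = 9.30e-04). It had 10.5 and 4.64 scaled RPKM at 2 h, 137 and 80.0 at 4 h, 91.0 and 71.3 at 6 h, and 70.4 and 73.0 at 12 h. This transcript was thus low at both 2 h and 48 h and higher between them, with both 12 h libraries below both 0 h libraries.

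**Figure D5:**
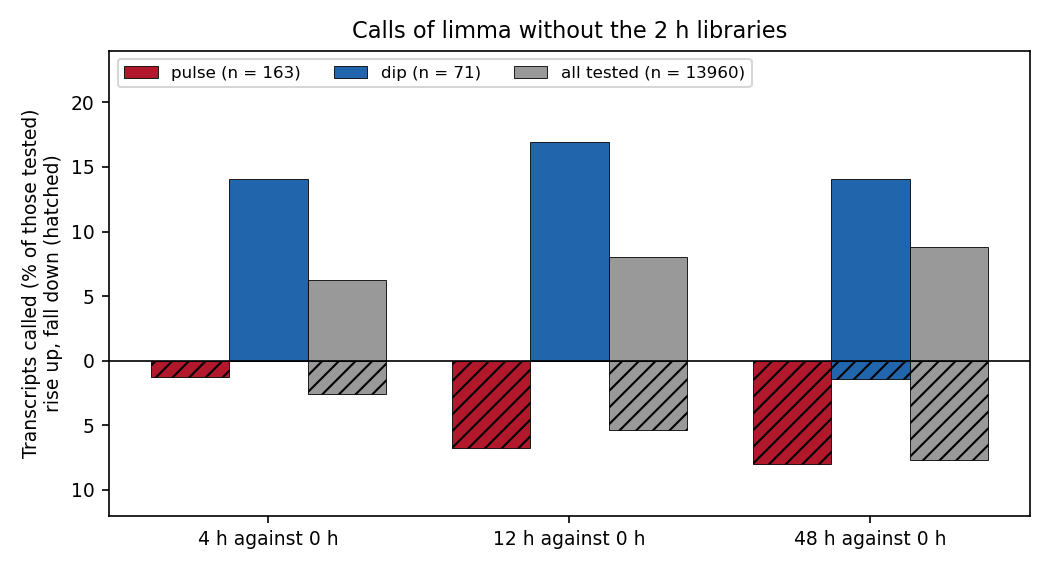
Percent of the transcripts tested that rose (bars up) or fell (hatched bars down) at 4, 12 and 48 h against 0 h in limma, fitted without the 2 h libraries, for 163 pulse transcripts, 71 dip transcripts and all 13960 transcripts. Falls were called in 1.2%, 6.7% and 8.0% of pulse transcripts at 4, 12 and 48 h, against 2.6%, 5.3% and 7.7% of all. Rises were called in 14.1%, 16.9% and 14.1% of dip transcripts, against 6.3%, 8.0% and 8.8% of all. No pulse transcript rose and 1 dip transcript fell, at 48 h, both directions that the rule limits. How far the rule and abundance bear on the falls of pulse and the rises of dip transcripts was not tested.

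The calls over time were put together per transcript. Of the 20 dip transcripts called in any comparison, 3 rose at 4, 12 and 48 h, 5 rose at 12 and 48 h, 5 rose at 4 h alone and 3 at 12 h alone. The other 4 showed 4 further patterns. Of the 19 pulse transcripts called, 5 fell at 12 and 48 h, 7 at 48 h alone and 5 at 12 h alone, and the 2 that fell at 4 h fell again at 12 or at 48 h. A comparison missed here is not shown to differ from a comparison that passed.

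The same rule was applied to each other time as a description of the series. It selected 410 pulses and 429 dips at 0 h, 64 and 13 at 4 h, 250 and 86 at 6 h, 190 and 172 at 12 h, and 691 and 667 at 48 h. With 210 pulses and 71 dips, the 2 h members, which are 1.24% and 0.418% of all predicted mRNAs, outnumbered those of 4 h in both classes. They were fewer than those of 0, 6 and 48 h in both classes, and 12 h had fewer pulses but more dips. Both ends of the series, 0 h and 48 h, have a neighbour on 1 side only.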

How the data were processed

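Strand-specific poly(A) RNA libraries were sequenced as 50 bp single reads, per the labels' protocols. Bowtie 0.12.8 was used per the submitters' processing notes, while build, read assignment and filters were not given in these sources. RPKM values of 17353 transcripts in 12 libraries were deposited by the authors. Depth is unknown, and no counting interval is given.

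Each library was scaled to a median of 20, a pseudocount of 1 was added and log2 was taken. A limma 3.58.1 model (R 4.3.3; empirical Bayes with a variance trend, 5 residual degrees of freedom) was fitted with a mean per time to the 10 libraries other than 2 h. P-values were adjusted over all 13960 transcripts tested, two-sided, and measure the spread between pools, which may be technical, since separate cultures or days are not stated. Scaling, pseudocount, filter, library weights, a replicate block, the margin and the set of libraries were varied, and each library was left out in turn. The limits on the adjusted p and on the log2 difference and the variance trend were the same in every fit. A simulation of the 10 libraries other than 2 h was run on 13960 transcripts, with changes placed at 48 h in transcripts that were not weakly expressed. It recovered 69 of 100 transcripts with a simulated log2 change of 1.5 and 90 of 100 with a change of 3. Of 13760 unchanged transcripts, 7 were called. Recovery of weakly expressed transcripts, which include many pulse transcripts, was not simulated. The simulated noise was equal at all times.

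The members and lists were chosen with earlier results of these data known. Named are, in each class, the 2 members with the largest margin and the 2 with the largest margin among those with at least 1 scaled RPKM in all libraries. Also named are, per comparison and over both classes together, the 2 largest rises and falls past the threshold. XM_002155992.2 was added afterwards, as the second largest pulse fall at 48 h. Replicate numbers were not used to pair the libraries in the main model.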

Additional observations from a re-analysis of the deposited data

How the results depend on the processing

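The alternatives gave 186 counts, of which 142 differed from the reported one by at most 1.5 times; the other 44 differed more. Of 361 values of named transcripts, 330 kept their call, 31 lost it and 0 changed sign. The number of pulse transcripts was 97 with a pseudocount of 5, 42 with a margin of 1, 105 with at least 1 scaled RPKM in all libraries, 335 without 2 h replicate 2 and 379 without 2 h replicate 1, and at least 199 without any other library. The number of dip transcripts was 20 with a margin of 1, 139 without 2 h replicate 1, 174 without 2 h replicate 2, at least 69 without any other library, 50 with a pseudocount of 5 and 63 with at least 1 scaled RPKM in all libraries. On deposited RPKM without scaling, 140 of 191 pulse and 53 of 86 dip transcripts were among those reported. Without scaling, the median transcript lay at −0.28 at 4 h, −0.32 at 12 h and −0.39 at 48 h relative to 0 h, and 4.39%, 5.24% and 5.00% of all transcripts rose while 6.72%, 12.0% and 16.1% fell. Calls of pulse transcripts were then 31 in the F-test, 8 at 4 h, 25 at 12 h and 41 at 48 h, all falls in the 3 comparisons, and 6 dip transcripts were called at 4 h; at 48 h 8 dip transcripts rose and 2 fell. With weights per library, 4 pulse transcripts were called at 4 h and 4 at 48 h. At 48 h there were 20 with all 12 libraries in the fit and 3 when the model held just the libraries of 0 and 48 h. At 12 h a pseudocount of 5 left 5 pulse transcripts, and no filter left 7 dip transcripts. Leaving out 1 library at a time gave 7 to 46 pulse transcripts in the F-test, 0 to 4 at 4 h, 3 to 16 at 12 h and 5 to 32 at 48 h; for dip transcripts it gave 15 to 28, 5 to 12, 5 to 12 and 9 to 12. The cause of these shifts was not tested. A lone library was assumed to vary like the others. Whether equal replicate numbers mark a shared preparation is not known. The correlation of replicate differences between times was 0.25 for 4 h with 6 h and between −0.11 and 0.04 for the other pairs of times. With the replicate block the F-test called 11 pulse transcripts in place of 18.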

Other observations

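Outside the predicted mRNAs, the table holds 365 rows, 364 of predicted non-coding RNAs and the row of Wnt3. The pulse pattern at 2 h was met by 4 of them (1.10%) and the dip pattern by 8 (2.19%), against 1.24% and 0.418% of predicted mRNAs; the difference was not tested. Wnt3 met neither pattern.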
